A study of Arabidopsis thaliana with 6 samples.

Results

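The regions described are the 735 windows of 300 bp that carried a mean read depth of 60 or more per CHH cytosine in every one of 6 whole-genome bisulfite libraries of Arabidopsis thaliana, on chromosomes 1 to 5. They were taken from 278507 windows with at least 10 CHH cytosines in each library (0.264%), laid from base 1 of each chromosome without overlap. CHH is a cytosine followed by 2 bases other than G. The level of a window is the percent of reads, counted at each of its CHH cytosines, that were methylated. They were chosen by their read depth, so that depth is given only as a description. The term high-copy repeats fitted only some of them, so they are called deeply covered windows here. Copies were counted at 80% identity or more over at least 150 bp on chromosomes 1 to 5 of the assembly. On these chromosomes 497 of the 735 windows had fewer than 10 other copies. There 344 had no other copy, of which 314 lay in an insertion of mitochondrial DNA. Matches to the mitochondrial genome itself were not counted as copies.

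All 6 libraries came from above-ground tissue of 2.5-week-old Col-0 plants grown under 16 h of light and 8 h of dark, with 2 libraries per group. All plants carried the nrpd1-3 mutation in the gene for the largest subunit of RNA polymerase IV (Pol IV), those with full-length NRPD1 included. NRPD1ΔCTD plants carried an NRPD1 transgene without the C-terminal domain (CTD), a region that holds the DeCL motif. The nrpd1-3 plants carried no transgene. Full-length NRPD1 plants carried the complete transgene, and both transgenes are genomic clones under the native promoter with a FLAG tag. The titles of the full-length libraries name NRPE1 and their transgene field names NRPD1, which was followed. No wild-type library was used here. Relative to the median window, read depth over NRPD1 (AT1G63020) was 2.37 in NRPD1ΔCTD, 1.70 in nrpd1-3 and 2.85 in full-length NRPD1, and none of its 24 windows was among the 735.

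In plants, Pol IV makes the precursors of 24-nt small RNAs, which guide the methyltransferase DRM2 to CHH sites by RNA-directed DNA methylation. CHH methylation in the long heterochromatin around the centromeres also depends on CMT2, a chromomethylase that favours CAA and CTA. Centromeric satellites and the genes for 45S ribosomal RNA (rDNA) are tandem arrays of which the reference assembly holds only a small part, so reads from many genomic copies can align to few positions. Chromosome 2 also carries a long insertion of mitochondrial DNA, and where the insertion is identical to the mitochondrial genome the reads of both cannot be told apart by sequence.

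Windows were placed in 6 sequence groups. A 178 bp satellite (136 windows) and a repeat with a period of about 500 bp (24 windows) were found by alignment to the deepest window of each. The rDNA blocks (57 windows) lay within 10 kb of an annotated rRNA gene. The mitochondrial insertion (327 windows) and a chloroplast-like stretch (2 windows) matched organelle sequence, and 189 windows were other nuclear sequence. The groups were settled after the windows had been seen. The sequences below are the plus strand of TAIR10, from the RefSeq assembly, and capitals mark CAA and CTA. The first pair shows neighbouring satellite units in the deepest satellite window and beside it, Chr3:13590601-13590778 and Chr3:13590779-13590956, identical at 173 of 178 bases.
Satellite unit 1: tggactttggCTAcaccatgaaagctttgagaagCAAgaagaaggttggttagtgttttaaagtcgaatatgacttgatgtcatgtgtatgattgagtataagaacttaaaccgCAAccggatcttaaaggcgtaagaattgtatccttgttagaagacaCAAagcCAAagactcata
Satellite unit 2: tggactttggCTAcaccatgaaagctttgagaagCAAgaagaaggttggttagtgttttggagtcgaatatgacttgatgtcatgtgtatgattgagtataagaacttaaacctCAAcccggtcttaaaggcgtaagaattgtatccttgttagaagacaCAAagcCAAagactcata
The deepest window of the 500 bp repeat, Chr5:11185501-11185800, comes next.
500 bp repeat: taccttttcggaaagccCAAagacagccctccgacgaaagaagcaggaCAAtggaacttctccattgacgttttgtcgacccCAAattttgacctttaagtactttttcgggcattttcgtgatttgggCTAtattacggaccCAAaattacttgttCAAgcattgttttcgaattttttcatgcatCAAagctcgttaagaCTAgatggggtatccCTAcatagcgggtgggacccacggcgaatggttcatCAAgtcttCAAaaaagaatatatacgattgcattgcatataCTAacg
A window in the F-box gene AT5G10340, Chr5:3253201-3253500, is shown as a deeply covered sequence without another counted copy of at least 150 bp.
AT5G10340 window: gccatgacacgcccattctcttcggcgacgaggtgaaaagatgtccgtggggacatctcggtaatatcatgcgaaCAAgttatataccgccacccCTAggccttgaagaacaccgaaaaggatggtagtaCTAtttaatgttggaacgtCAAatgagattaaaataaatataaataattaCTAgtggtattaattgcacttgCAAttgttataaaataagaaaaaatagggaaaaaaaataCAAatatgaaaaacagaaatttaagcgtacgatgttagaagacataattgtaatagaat

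The deeply covered windows lay mostly in dense heterochromatin, with 656 in pericentromeric sequence and 79 on the arms. Pericentromeric here means the intervals of the study, which include the knob of chromosome 4. The 656 are 89.3% of the windows, against 25.3% of all windows, and 327 of them lay in the mitochondrial insertion. Chromosome 2 held 400 of them, chromosome 3 held 102, chromosome 5 held 100, chromosome 1 held 77 and chromosome 4 held 56. They formed 248 runs of adjoining windows, of which 148 were single windows and the longest had 38, and covered 220.5 kb. Read coverage summed over the 12654903 to 13819039 listed CHH cytosines of a library came to 192342372 to 225676590. A read counts there once for each CHH cytosine it covers. The deeply covered windows took 3.68 to 3.88% of this sum on 0.386 to 0.418% of the cytosines. The mean depth of a window ran between 62.9 and 1682 reads per cytosine with a median of 107, which is 8.81 times the median window of the library. The deepest were the rDNA blocks, at a median of 25.1 times the median window and at most 139 times, and the shallowest group was the other nuclear sequence at a median of 6.01 times. The 300 bp windows just inside the limit were Chr3:16158901-16159200 in AT3G44570, Chr5:2394901-2395200 in AT5G07570 and Chr2:3377701-3378000 in AT2G07638, with 60.02, 60.06 and 60.07 reads per cytosine in their shallowest library. Just outside it were Chr5:12503101-12503400 in AT5G33252, Chr2:5047501-5047800 in AT2G12460 and Chr2:4092001-4092300 in AT2G10540, at 59.98, 59.93 and 59.92.

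**Figure D1:**
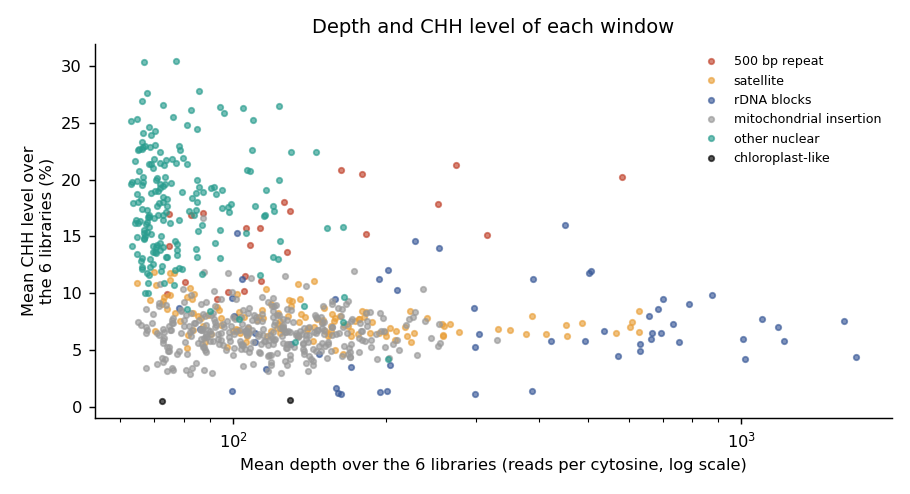
Mean CHH level over the 6 libraries (percent) against mean depth (reads per cytosine, log scale) for each of the 735 windows, coloured by sequence group. The rDNA blocks reach 1682 reads per cytosine, while most other nuclear windows sit at the shallow end with the highest levels.

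The groups carried depth in unlike proportions. In depth relative to the median window, the 500 bp repeat averaged 13.3 ± 0.87 in NRPD1ΔCTD, 11.7 ± 0.73 in nrpd1-3 and 13.8 ± 0.94 in full-length NRPD1 (SD, n = 2 each). The mitochondrial insertion averaged 9.25 ± 0.04 in NRPD1ΔCTD, 9.84 ± 0.11 in nrpd1-3 and 9.20 ± 0.12 in full-length NRPD1. The satellite averaged 14.2 ± 0.19 in NRPD1ΔCTD, 13.8 ± 0.08 in nrpd1-3 and 14.6 ± 0.06 in full-length NRPD1, and the rDNA blocks 39.9 ± 1.1 in NRPD1ΔCTD, 40.4 ± 1.3 in nrpd1-3 and 41.2 ± 1.2 in full-length NRPD1. Depth in nrpd1-3 was thus lower than in both other groups by more than each SD in the 500 bp repeat and in the satellite. In the insertion it was higher by more than each SD. The part of these depths in the levels below was not tested. The tissue was bulk, so a level cannot tell a change in every copy or cell apart from a change in some of them.

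Over all 735 windows the CHH level was 9.18 and 8.84% in NRPD1ΔCTD, 8.91 and 7.84% in nrpd1-3, and 9.10 and 8.77% in full-length NRPD1. Replicate 2 of nrpd1-3 was the lowest library, and replicate 1 of nrpd1-3 lay inside the range of the other groups. The group means differed by 0.63 percentage points for NRPD1ΔCTD minus nrpd1-3, by -0.56 for nrpd1-3 minus full-length NRPD1 and by 0.07 for NRPD1ΔCTD minus full-length NRPD1. These differences share libraries pairwise. With 2 libraries against 2, an exact permutation test cannot give a two-sided p below 0.333, so no test was made of these means. The other 277772 windows had levels of 7.15 and 6.76% in NRPD1ΔCTD, 6.96 and 6.19% in nrpd1-3, and 7.28 and 6.96% in full-length NRPD1.

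No deeply covered window was called by logistic regression on pooled reads, which needed p (adjusted by Benjamini-Hochberg) to be at most 0.01 and a difference of 10 points or more. The count was 0 of 735 in each direction and comparison, and stayed 0 at an unadjusted p under 0.05, with limma and with an F test that estimated overdispersion. Over all windows tested, 1.50% were called higher and 0.00826% lower for NRPD1ΔCTD minus nrpd1-3. For nrpd1-3 minus full-length NRPD1 these shares were 2.44% lower and 0.0162% higher, and for NRPD1ΔCTD minus full-length NRPD1 they were 0.541% lower and 0.0140% higher. The largest difference in any deeply covered window was 9.91 points, so the 10-point limit was not reached by any of them. The limit was the same in these alternatives, so each had to give 0 whatever its p.

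Deep windows pass a test of reads at small differences. At an adjusted p of 0.01 or less and no minimum difference, 180 windows were higher and 61 lower in NRPD1ΔCTD than in nrpd1-3, where 5.29% of all windows were higher and 5.30% lower. In nrpd1-3 against full-length NRPD1, 185 were lower and 147 higher, with 6.93% and 6.42% of all windows. In NRPD1ΔCTD against full-length NRPD1, 14 were lower and 18 higher, with 2.21% and 0.439% of all windows. With the further condition that the 2 groups did not overlap, 178 windows were higher and 42 lower in NRPD1ΔCTD than in nrpd1-3 (5.15% and 3.11% of all windows), 181 were lower and 122 higher in nrpd1-3 than full-length NRPD1 (6.81% and 3.91%), and 13 were lower and 18 higher in NRPD1ΔCTD than full-length NRPD1 (2.14% and 0.377%). These counts rest on reads and not on the spread between libraries: limma, which uses that spread, gave 0 windows at the same adjusted p in each of the 5 larger sequence groups described below, while over all windows it gave 542 higher in NRPD1ΔCTD than in nrpd1-3 and 2578 lower in nrpd1-3 than full-length NRPD1. The nrpd1-3 libraries also differed from each other, since 199 of the 735 windows passed an adjusted p of 0.01 between them, all higher in replicate 1, as against 16 between the NRPD1ΔCTD libraries and 18 between the full-length NRPD1 libraries. The study describes the libraries of a group as independent biological replicates, and whether this spread is biological or technical was not tested.

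**Figure D2:**
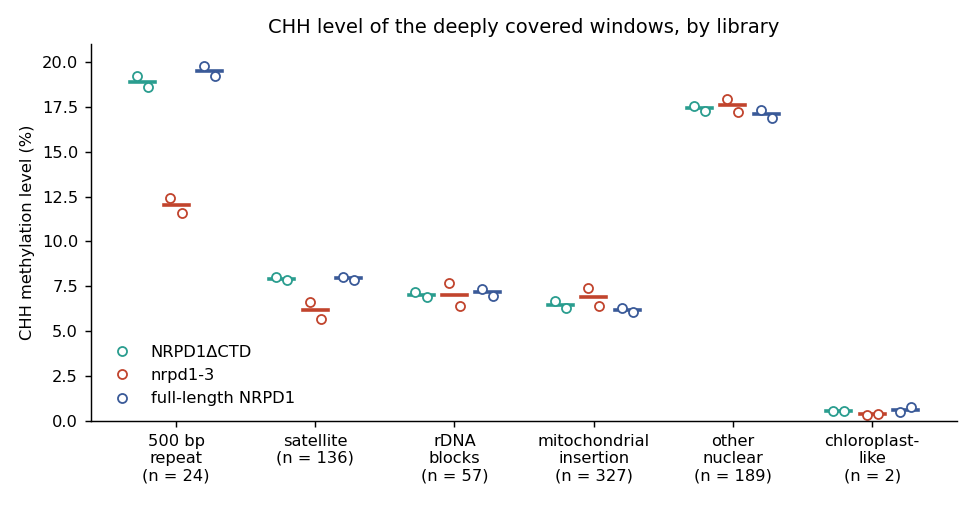
CHH level (percent) of each library (points) and group mean (lines) over the windows of each sequence group, with the number of windows below each name. The nrpd1-3 libraries lie under the other groups in the 500 bp repeat, the satellite and the chloroplast-like stretch. They overlap both other groups in the rDNA blocks and the other nuclear sequence. In the mitochondrial insertion they lie above full-length NRPD1 and overlap NRPD1ΔCTD.

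The 500 bp repeat had the largest difference of the sequence groups. Its 24 windows lay on chromosomes 3 (10 windows), 4 (3) and 5 (11), and none of them overlapped an annotated gene. Their level was 19.2 and 18.6% in NRPD1ΔCTD, 12.4 and 11.6% in nrpd1-3, and 19.8 and 19.2% in full-length NRPD1. Both nrpd1-3 libraries lay below the 4 others, and the higher NRPD1ΔCTD library and the lower full-length NRPD1 library were level at 19.2%. NRPD1ΔCTD minus nrpd1-3 was 6.90 points, nrpd1-3 minus full-length NRPD1 was -7.49 and NRPD1ΔCTD minus full-length NRPD1 was -0.59. The deepest run, Chr5:11184601-11186700 with 7 windows at a mean depth of 270.8, had 21.6 and 20.7% in NRPD1ΔCTD, 14.0 and 13.1% in nrpd1-3, and 22.2 and 21.4% in full-length NRPD1.

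All 24 windows were higher in NRPD1ΔCTD than in nrpd1-3 and lower in nrpd1-3 than full-length NRPD1 at an adjusted p of 0.01 or less by logistic regression. Groups did not overlap in any of the 24 for either comparison, against 5.15% and 6.81% of all windows that passed both conditions in those directions. In NRPD1ΔCTD against full-length NRPD1, 2 windows were lower (8.33%, against 2.21% of all windows) and 0 higher (0.439% of all windows). The 2 became 6 without NRPD1ΔCTD replicate 1, 0 without NRPD1ΔCTD replicate 2 and 1 without full-length NRPD1 replicate 1. In single windows, nrpd1-3 minus full-length NRPD1 ran between -3.15 and -9.91 points with a median of -6.68, against a median of 0.04 over all windows tested. For NRPD1ΔCTD minus nrpd1-3 the median was 6.06 points, against -0.04 over all windows. No window passed an adjusted p of 0.01 with limma, which gave 23 of 24 at an unadjusted p under 0.05 for NRPD1ΔCTD minus nrpd1-3 and 24 of 24 for nrpd1-3 minus full-length NRPD1.

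The deepest window of the 500 bp repeat, Chr5:11185501-11185800 with a depth of 582, whose sequence stands above, had levels of 23.3 and 22.2% in NRPD1ΔCTD, 14.7 and 14.8% in nrpd1-3, and 23.5 and 22.9% in full-length NRPD1. Its CAA and CTA sites had 54.1 and 52.9% in NRPD1ΔCTD, 40.1 and 40.3% in nrpd1-3, and 54.4 and 52.5% in full-length NRPD1. Its other CHH sites had 12.5 and 11.4% in NRPD1ΔCTD, 5.64 and 5.70% in nrpd1-3, and 12.6 and 12.5% in full-length NRPD1. Both kinds of site were thus lower in both nrpd1-3 libraries than in the 4 others. The window with the largest difference, Chr5:11186401-11186700, had 23.6 and 23.8% in NRPD1ΔCTD, 15.3 and 13.7% in nrpd1-3, and 24.5 and 24.4% in full-length NRPD1, with adjusted p = 3.46e-153 for NRPD1ΔCTD minus nrpd1-3 by logistic regression. Windows of the same family below the depth limit (552) had 16.8 and 16.5% in NRPD1ΔCTD, 10.8 and 10.2% in nrpd1-3, and 17.1 and 16.8% in full-length NRPD1, and 67 of them (12.1%, against 2.44% of all windows) were called lower in nrpd1-3 than full-length NRPD1 by 10 points or more.

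**Figure D3:**
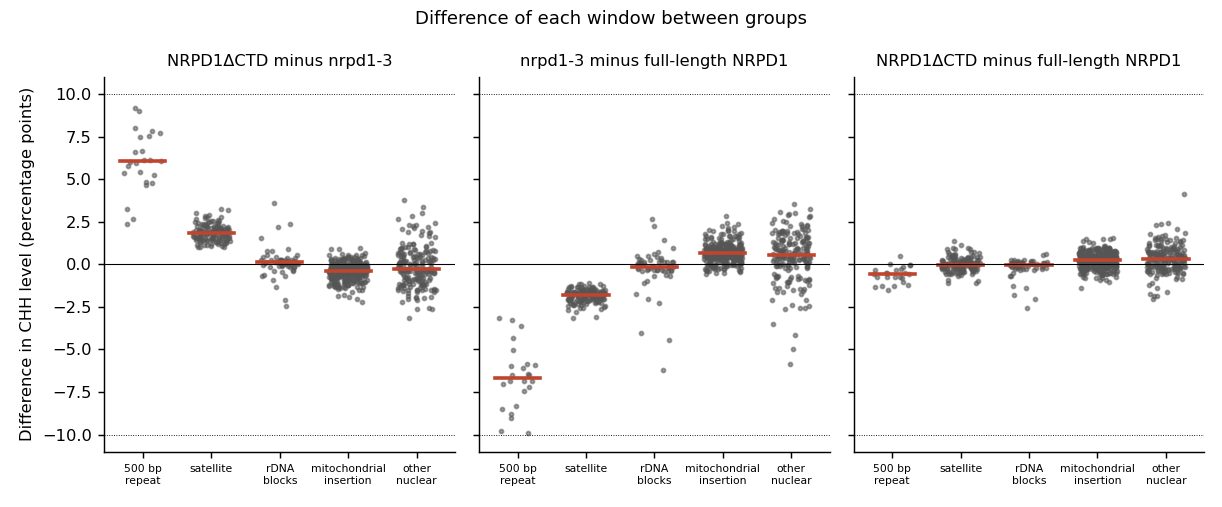
Difference in CHH level (percentage points) of each deeply covered window in the 3 comparisons, by sequence group, with medians as lines and the 10-point limit dotted; the 2 chloroplast-like windows are not drawn. All 24 windows of the 500 bp repeat and all 136 of the satellite lie on one side of 0 in the comparisons that involve nrpd1-3, and no window reaches 10 points.

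The 178 bp satellite, the unit that forms the centromeres of Arabidopsis, was lower in nrpd1-3 by a smaller amount. Its 136 windows lay on chromosomes 5 (40 windows), 2 (39), 4 (29), 1 (14) and 3 (14). Their level was 8.02 and 7.83% in NRPD1ΔCTD, 6.61 and 5.70% in nrpd1-3, and 8.03 and 7.84% in full-length NRPD1. Both nrpd1-3 libraries lay below the 4 others, while NRPD1ΔCTD and full-length NRPD1 overlapped. NRPD1ΔCTD minus nrpd1-3 was 1.77 points, nrpd1-3 minus full-length NRPD1 was -1.78 and NRPD1ΔCTD minus full-length NRPD1 was -0.01. The longest and deepest runs of the satellite lay on 4 chromosomes. The deepest, Chr3:13588801-13592700 with 13 windows at a mean depth of 393, had 7.88 and 7.70% in NRPD1ΔCTD, 6.63 and 5.48% in nrpd1-3, and 7.82 and 7.59% in full-length NRPD1. The longest, Chr1:15081901-15086100 with 14 windows over AT1G40104, had 7.77 and 7.76% in NRPD1ΔCTD, 6.56 and 5.68% in nrpd1-3, and 7.92 and 7.93% in full-length NRPD1. Both nrpd1-3 libraries were below the 4 others in these runs, and likewise in Chr2:3618901-3622800 and Chr2:3625201-3627000 over AT2G08986, Chr4:3950401-3954000 over the pseudogene AT4G06700 and Chr4:3954301-3956100.

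All 136 satellite windows were higher in NRPD1ΔCTD than in nrpd1-3 and lower in nrpd1-3 than full-length NRPD1 at an adjusted p of 0.01 or less by logistic regression, and the groups did not overlap in 134 of them in either comparison. Of all windows, 5.15% and 6.81% passed both conditions in those directions. In NRPD1ΔCTD against full-length NRPD1, 3 windows were lower and 1 higher. These are 2.21% and 0.735% of the satellite windows, against 2.21% and 0.439% of all windows. The 3 became 1 without replicate 2 of either group, and the 1 became 2 without NRPD1ΔCTD replicate 2 and 0 without full-length NRPD1 replicate 1. Single windows of nrpd1-3 minus full-length NRPD1 ran between -1.11 and -3.13 points, with the largest at Chr2:3615001-3615300 in AT2G07981. None passed an adjusted p of 0.01 with limma, and 24 and 19 had an unadjusted p under 0.05 in the comparisons of NRPD1ΔCTD and full-length NRPD1 with nrpd1-3. When reads were scaled to at most 20 per cytosine, 53 windows stayed higher in NRPD1ΔCTD than in nrpd1-3 and 54 lower in nrpd1-3 than full-length NRPD1.

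The deepest satellite window, Chr3:13590601-13590900 with a depth of 630, had 7.37 and 6.95% in NRPD1ΔCTD, 6.31 and 4.71% in nrpd1-3, and 6.98 and 6.94% in full-length NRPD1. Its first printed unit had 18.5 and 18.2% at CAA and CTA in NRPD1ΔCTD, 15.4 and 13.3% in nrpd1-3, and 17.6 and 16.9% in full-length NRPD1. At the other CHH sites of that unit the levels were 3.83 and 3.72% in NRPD1ΔCTD, 3.52 and 2.24% in nrpd1-3, and 3.73 and 3.96% in full-length NRPD1. The nrpd1-3 libraries were the lowest at both kinds of site, replicate 1 by little at the other sites. Satellite windows below the depth limit (809) had 12.3 and 11.9% in NRPD1ΔCTD, 9.86 and 9.12% in nrpd1-3, and 12.2 and 11.9% in full-length NRPD1, and 4 of them (0.494%) were called lower in nrpd1-3 than full-length NRPD1 by 10 points or more, below the 2.44% of all windows. The satellite median was 1980.5 other copies at 80% identity in the assembly and that of the 500 bp repeat was 492.5, against 4 in the other nuclear windows.

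The rDNA blocks on chromosomes 2 and 3 hold the genes for 18S, 5.8S and 25S rRNA and the spacers between them, of which the annotation marks the first 2 kinds of gene. Over the 57 windows the level was 7.17 and 6.89% in NRPD1ΔCTD, 7.69 and 6.39% in nrpd1-3, and 7.33 and 6.98% in full-length NRPD1, with replicate 1 of nrpd1-3 the highest and its replicate 2 the lowest of the 6. The longest run of all, Chr3:14193301-14204700 with 38 windows at a mean depth of 514.5, had 7.21 and 6.91% in NRPD1ΔCTD, 7.94 and 6.44% in nrpd1-3, and 7.37 and 6.98% in full-length NRPD1, with the same 2 libraries at the ends. On chromosome 2, Chr2:2401-3900 (5 windows at 607) had 7.05 and 6.82% in NRPD1ΔCTD, 7.26 and 6.48% in nrpd1-3, and 7.06 and 6.75% in full-length NRPD1. Other deep runs there were Chr2:5401-6300, over the rRNA genes AT2G01010 and AT2G01020, and Chr2:9301-10500. At an adjusted p of 0.01 or less, 7 windows were higher and 7 lower in NRPD1ΔCTD than in nrpd1-3, 11 were lower and 8 higher in nrpd1-3 than full-length NRPD1, and 7 were lower in NRPD1ΔCTD than full-length NRPD1 with 0 higher. As shares of the 57 windows these are 12.3% higher and 12.3% lower (5.29% and 5.30% of all windows), 19.3% lower and 14.0% higher (6.93% and 6.42%), and 12.3% lower (2.21%). These counts turned on single libraries. Without nrpd1-3 replicate 1, 20 were lower and 0 higher in nrpd1-3 than full-length NRPD1, and 17 were higher and 0 lower in NRPD1ΔCTD than in nrpd1-3. Without nrpd1-3 replicate 2, 17 were higher in nrpd1-3 than full-length NRPD1, and 4 were higher and 19 lower in NRPD1ΔCTD than in nrpd1-3. Without full-length NRPD1 replicate 2, 4 were higher in nrpd1-3 than full-length NRPD1.

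Upstream of the 18S gene (25 windows) the level was 5.82 and 5.62% in NRPD1ΔCTD, 5.54 and 4.81% in nrpd1-3, and 6.23 and 5.95% in full-length NRPD1. Pooled over both chromosomes, the 3 groups did not overlap there. On chromosome 2 alone (8 windows), replicate 1 of nrpd1-3 lay between the NRPD1ΔCTD libraries. The upstream windows were also unlike each other. Their nrpd1-3 minus full-length NRPD1 ran between -6.18 points at Chr3:14195701-14196000 and 0.147 at Chr3:14195101-14195400. Downstream of the 18S gene (23 windows) the level was 8.07 and 7.76% in NRPD1ΔCTD, 9.21 and 7.42% in nrpd1-3, and 8.03 and 7.65% in full-length NRPD1, where the groups overlapped. At an adjusted p of 0.01 or less by logistic regression, 6 upstream windows were higher and 0 lower in NRPD1ΔCTD than in nrpd1-3, against 1 higher and 5 lower downstream (5.29% and 5.30% of all windows). In nrpd1-3 against full-length NRPD1, 8 were lower and 0 higher upstream, against 3 lower and 6 higher downstream (6.93% and 6.42% of all windows). In NRPD1ΔCTD against full-length NRPD1, 6 were lower upstream and 1 downstream, with 0 higher in either (2.21% and 0.439% of all windows).

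An upstream window chosen after its values were seen, Chr3:14194201-14194500 with a depth of 86.1, had 7.19 and 6.55% in NRPD1ΔCTD, 4.80 and 4.55% in nrpd1-3, and 7.20 and 10.5% in full-length NRPD1, so both nrpd1-3 libraries were the lowest and the full-length NRPD1 libraries differed from each other by more than NRPD1ΔCTD differed from nrpd1-3. In some rDNA windows in and after the 18S gene, only replicate 1 of nrpd1-3 was high. Chr3:14199001-14199300 had 11.0 and 10.2% in NRPD1ΔCTD, 15.6 and 10.2% in nrpd1-3, and 11.1 and 9.56% in full-length NRPD1. Chr3:14201401-14201700, with a depth of 1594, had 6.91 and 7.06% in NRPD1ΔCTD, 11.3 and 6.61% in nrpd1-3, and 6.86 and 6.78% in full-length NRPD1. Replicate 2 of nrpd1-3 lay among or just below the other 4 libraries in each. The deepest window of all, Chr3:14202001-14202300 with a depth of 1682, had 4.42 and 4.15% in NRPD1ΔCTD, 5.37 and 4.03% in nrpd1-3, and 4.32 and 4.06% in full-length NRPD1.

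The mitochondrial insertion held the most windows, 327 of the 649 covered ones between Chr2:3241201 and Chr2:3509700 (268.5 kb), and 272 of the 327 were identical to the mitochondrial genome of the assembly. Its windows overlap genes with mitochondrial counterparts, such as AT2G07671 for ATP synthase subunit C, AT2G07751 for chain 3 of the NADH oxidoreductase and AT2G07698 for the alpha subunit of the F1 ATPase. The level was 6.66 and 6.28% in NRPD1ΔCTD, 7.38 and 6.38% in nrpd1-3, and 6.28 and 6.09% in full-length NRPD1. Replicate 1 of nrpd1-3 was the highest, and its replicate 2 lay between the NRPD1ΔCTD libraries. The longest runs were Chr2:3273301-3279900 and Chr2:3315601-3322200 (22 windows each), Chr2:3265501-3271800 and Chr2:3338701-3345000 (21 each), Chr2:3252301-3257700 (18), Chr2:3361801-3366600 (16) and Chr2:3282001-3285900 (13). Replicate 1 of nrpd1-3 was the highest library in each of these 7 runs. At an adjusted p of 0.01 or less, 39 windows were lower and 0 higher in NRPD1ΔCTD than in nrpd1-3, 99 were higher and 0 lower in nrpd1-3 than full-length NRPD1, and 10 were higher and 1 lower in NRPD1ΔCTD than full-length NRPD1. The 39 are 11.9% of the insertion's windows, against 5.30% of all windows, the 99 are 30.3%, against 6.42%, and the 10 are 3.06%, against 0.439%, with the 1 lower at 0.306%, against 2.21%. The 99 windows became 15 without nrpd1-3 replicate 1, 168 without nrpd1-3 replicate 2 and 47 without full-length NRPD1 replicate 2. The 39 windows became 4 without nrpd1-3 replicate 1, 105 without nrpd1-3 replicate 2 and 13 without NRPD1ΔCTD replicate 2.

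Levels in the insertion were close whether its windows were split by identity or by depth. Identity was counted against the mitochondrial genome of RefSeq TAIR10.1, while the reads had been aligned to TAIR10. Windows identical to the mitochondrial genome had 6.62 and 6.23% in NRPD1ΔCTD, 7.35 and 6.33% in nrpd1-3, and 6.25 and 6.05% in full-length NRPD1. The 55 windows not identical over their whole length had 6.84 and 6.51% in NRPD1ΔCTD, 7.51 and 6.63% in nrpd1-3, and 6.42 and 6.31% in full-length NRPD1. The 320 covered windows between its ends that fell below the depth limit had 6.50 and 6.21% in NRPD1ΔCTD, 7.45 and 6.32% in nrpd1-3, and 6.12 and 5.99% in full-length NRPD1. The levels of these sets differed by less than the nrpd1-3 replicates did. The chloroplast-like stretch at Chr3:7104001-7104600, in AT3G20362 and AT3G20365, had the lowest level of the groups, 0.554 and 0.549% in NRPD1ΔCTD, 0.341 and 0.411% in nrpd1-3, and 0.511 and 0.753% in full-length NRPD1. The study calculated a bisulfite conversion rate from the chloroplast genome, the values used here are not corrected for it, and how much of these low levels is methylation was not tested.

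The other nuclear windows mainly overlapped loci annotated as pseudogenes. The annotation used marks no transposons, and whether these loci are transposable elements was not tested. Of the 189 windows, 163 overlapped one or more of 94 annotated pseudogenes, and 11 of these loci had 3 windows or more. Their level was 17.6 and 17.3% in NRPD1ΔCTD, 17.95 and 17.2% in nrpd1-3, and 17.3 and 16.9% in full-length NRPD1, so the groups overlapped. At an adjusted p of 0.01 or less, 13 were higher and 15 lower in NRPD1ΔCTD than in nrpd1-3, 13 were lower and 40 higher in nrpd1-3 than full-length NRPD1, and 1 was lower and 7 higher in NRPD1ΔCTD than full-length NRPD1. The 13 higher and 15 lower are 6.88% and 7.94% of these windows, near the 5.29% and 5.30% of all windows, and the 13 lower in nrpd1-3 (6.88%) are at the 6.93% of all windows. The 40 are 21.2%, against 6.42% of all windows, and the 7 are 3.704%, against 0.439%, with the 1 lower at 0.529%, against 2.21%. The 40 windows became 17 without nrpd1-3 replicate 1 and 19 without full-length NRPD1 replicate 2. The 15 became 9 without NRPD1ΔCTD replicate 2, 7 without nrpd1-3 replicate 1 and 28 without nrpd1-3 replicate 2, and the 13 lower in nrpd1-3 became 8 without full-length NRPD1 replicate 1. AT1G34610 had the most windows (11), at 21.1 and 20.3% in NRPD1ΔCTD, 21.5 and 21.1% in nrpd1-3, and 20.3 and 20.3% in full-length NRPD1. A window of AT1G36590, Chr1:13822801-13823100, had 20.5 and 21.2% in NRPD1ΔCTD, 19.99 and 20.5% in nrpd1-3, and 16.9 and 16.6% in full-length NRPD1, where both full-length NRPD1 libraries were the lowest.

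A few single windows of the other nuclear sequence were lower in nrpd1-3. The largest fall among the 189 was in OFP9 (AT4G04030), annotated as a transcription repressor, at Chr4:1937401-1937700, with 18.1 and 20.7% in NRPD1ΔCTD, 16.0 and 15.2% in nrpd1-3, and 21.1 and 21.95% in full-length NRPD1. The 3 groups did not overlap there, and the differences were 3.79 points for NRPD1ΔCTD minus nrpd1-3 (adjusted p = 5.11e-07) and -5.83 for nrpd1-3 minus full-length NRPD1 (adjusted p = 1.85e-16) by logistic regression. The adjusted p of NRPD1ΔCTD minus full-length NRPD1 was 0.0728. The printed window of AT5G10340, chosen after its values were seen and 16.7 times the median window at a depth of 202, had 4.81 and 4.30% in NRPD1ΔCTD, 3.34 and 2.43% in nrpd1-3, and 5.52 and 5.02% in full-length NRPD1. The window before it, Chr5:3252901-3253200, had 5.75 and 6.13% in NRPD1ΔCTD, 4.40 and 3.26% in nrpd1-3, and 7.99 and 6.71% in full-length NRPD1. In both windows each group stood apart, with nrpd1-3 lowest. Neither window had another copy by the count used here, which would miss a repeated piece shorter than 150 bp. In NRPD1ΔCTD replicate 1, 9 of the 46 sites of the printed window were CAA or CTA, at 21.5%. Its other CHH sites had 4.39%, close to the 4.81% of all its sites. Reads were thus spread unevenly over that window, and whether its deep part is repeated elsewhere was not tested.

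**Figure D4:**
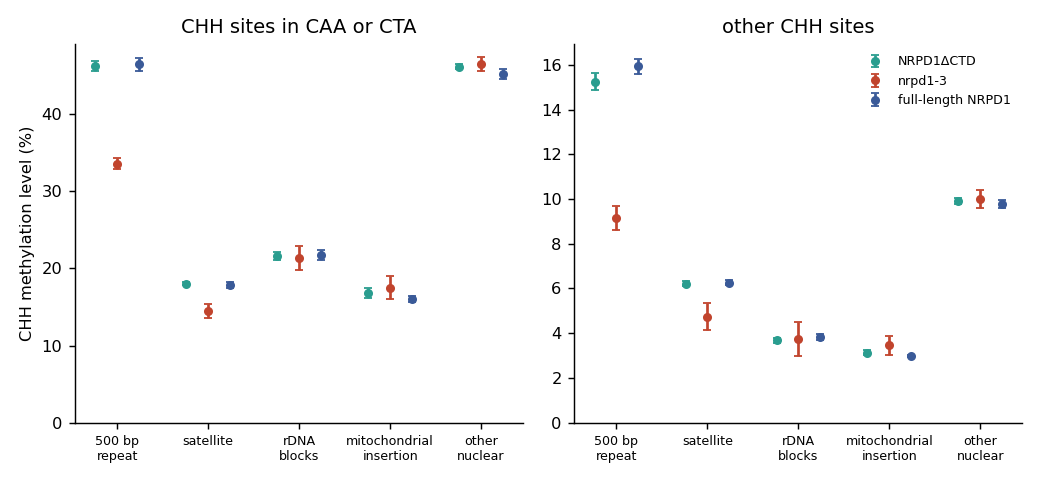
CHH level (percent) at CAA and CTA sites and at all other CHH sites, as mean ± SD of 2 libraries, for each sequence group. The other sites include listed positions that are not C in the reference sequence used. The vertical scales differ; nrpd1-3 lies below both other groups by more than the SDs at both kinds of site in the 500 bp repeat and the satellite.

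Sites in CAA and CTA were the more methylated ones in every nuclear group and in the mitochondrial insertion. Per library, 8422 to 8499 listed positions were not C on their strand in the reference sequence used. They were counted with the other CHH sites (42624 to 43035). In the 24 windows of the 500 bp repeat 217 to 224 CAA and CTA sites were counted. The reference holds a median of 19 per window. The 136 satellite windows had 1673 to 1698, with a median of 27 per window in the reference. The 2 kinds of site may thus be mixed in part, which was not tested. The 500 bp repeat averaged 46.2 ± 0.641% at CAA and CTA in NRPD1ΔCTD, 33.6 ± 0.730% in nrpd1-3 and 46.4 ± 0.898% in full-length NRPD1 (SD, n = 2 each). At its other CHH sites the means were 15.2 ± 0.368% in NRPD1ΔCTD, 9.15 ± 0.528% in nrpd1-3 and 15.9 ± 0.331% in full-length NRPD1. With the sites counted this way, the level in nrpd1-3 was 0.723 of that in full-length NRPD1 at CAA and CTA. At the other sites it was 0.574 of it. The satellite averaged 18.04 ± 0.202% at CAA and CTA in NRPD1ΔCTD, 14.5 ± 0.878% in nrpd1-3 and 17.8 ± 0.410% in full-length NRPD1, and 6.22 ± 0.128%, 4.74 ± 0.610% and 6.27 ± 0.1004% at its other sites in that order. The other nuclear windows had a level at CAA and CTA as high as that of the 500 bp repeat, 46.2 ± 0.365% in NRPD1ΔCTD, 46.5 ± 0.903% in nrpd1-3 and 45.1 ± 0.639% in full-length NRPD1, without the lower value in nrpd1-3. In the rDNA blocks the 2 kinds of site had 21.6 ± 0.499% and 3.68 ± 0.0994% in NRPD1ΔCTD, 21.4 ± 1.52% and 3.74 ± 0.744% in nrpd1-3, and 21.7 ± 0.655% and 3.81 ± 0.132% in full-length NRPD1.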

How the data were processed

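CHH calls from 6 bisulfite libraries were used, grouped by the labels. As the labels and the study's methods state, the authors made libraries with the TruSeq DNA methylation kit, trimmed reads with cutadapt 1.9.1, aligned them to TAIR10 with Bismark 0.16.1, removed PCR duplicates and kept cytosines with at least 5 reads. The deposited coverage values are counts of reads per cytosine, and the deposited percent values give the methylated share of them, so cytosines below 5 reads are missing and unconverted cytosines count as methylated. A depth above that of single-copy sequence can come from copies that the assembly lacks, and such reads mix copies at one position.

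Windows needed 10 cytosines per library. The level was methylated reads over all reads. Reads were counted at each cytosine, so a read over several cytosines counted several times, in the test as well. Each pair of groups was tested by logistic regression on pooled reads with a likelihood-ratio test (Python 3.11.15, scipy 1.17.1), adjusted by the Benjamini-Hochberg method over 278507 windows, with 0.01 and 10 points as limits. The test was tried on simulated counts without added spread between the libraries of a group, so the simulation cannot speak to such spread. Alternatives were limma 3.58.1 (R 4.3.3), an F test, other depth limits and leaving out libraries. Sequence groups were settled after the windows were seen, using blastn 2.17.0 with genomic sequence and annotation from RefSeq TAIR10.1. The satellite and the 500 bp repeat needed hits at 80% identity that covered at least 150 bp of a window. Organelle groups needed a higher identity, and the rDNA blocks were set by distance. Copies were counted at 80% identity over at least 150 bp on chromosomes 1 to 5. The rule for names took the 10 runs with the most windows, the 10 deepest, the longest of each sequence class, the genes overlapping them (examples are given) and the 3 windows on each side of the depth limit. It also took the 5 most different called windows of each comparison, of which there were 0. Other windows and loci named in the text, such as the deepest or most different ones of a group, were chosen after their values were seen. One rDNA sequence and the results that need it are not reported here. The members and lists were chosen with earlier results of these data known.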

Additional observations from a re-analysis of the deposited data

How the results depend on the processing

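The number of windows depended on the depth limit: 735 at 60, 3086 at 40, 347 at 100 and 1457 at 4 times the median window. At a limit of 40, nrpd1-3 minus full-length NRPD1 over the windows was 0.00192 points and 6 windows were called higher in NRPD1ΔCTD than in nrpd1-3, 14 lower in nrpd1-3 than full-length NRPD1 and 1 lower in NRPD1ΔCTD than full-length NRPD1. At 100, NRPD1ΔCTD minus full-length NRPD1 was -0.0118. The 500 bp repeat at 100 had 7.51 and -8.14 points for the comparisons of NRPD1ΔCTD minus nrpd1-3 and nrpd1-3 minus full-length NRPD1, and 6.03 and -6.62 with windows weighted equally. The satellite had 0.0174 for NRPD1ΔCTD minus full-length NRPD1 when weighted equally. Only cytosines listed in all libraries gave 2 windows higher in NRPD1ΔCTD than in nrpd1-3 and 3 lower in nrpd1-3 than full-length NRPD1, and a limit of 5 points gave 18 and 22. The causes of these changes were not tested.

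With one library left out in turn, the difference over all windows ran between 0.0986 and 1.17 for NRPD1ΔCTD minus nrpd1-3, -1.10 and -0.0262 for nrpd1-3 minus full-length NRPD1, and -0.0972 and 0.242 for NRPD1ΔCTD minus full-length NRPD1. The 500 bp repeat ran between 6.49 and 7.31, -7.89 and -7.08, and -0.901 and -0.277, and the satellite between 1.31 and 2.22, -2.24 and -1.33, and -0.107 and 0.0828. Calls ran between 0 and 1 higher in NRPD1ΔCTD than in nrpd1-3 and between 0 and 2 lower in nrpd1-3 than full-length NRPD1. Other nuclear windows at a depth of 100 had 0.132 for NRPD1ΔCTD minus nrpd1-3. The rDNA blocks had 0.131 with equal weights, and with one library left out they ran between -0.655 and 0.641 for NRPD1ΔCTD minus nrpd1-3, -0.768 and 0.528 for nrpd1-3 minus full-length NRPD1, and -0.300 and 0.0463 for NRPD1ΔCTD minus full-length NRPD1. For NRPD1ΔCTD minus nrpd1-3 the mitochondrial insertion ran between -0.909 and 0.0924 and the other nuclear windows between -0.524 and 0.236, both highest without nrpd1-3 replicate 1. Alternatives on single sequence groups and on windows without the mitochondrial insertion were chosen after seeing the data, and the last gave 0.996, -0.980 and 0.0158. With the replicate number as a block, the differences were 0.634, -0.562 and 0.0724 and 0 windows were called. The labels do not say that a number marks shared plants, and deviations of same-numbered libraries correlated at only 0.0101, 0.00249 and -0.0017 over all windows for the 3 pairs of groups, and between 0.0695 and 0.124 over the 735.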

Other observations

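One window outside the set stood apart in depth and was chosen after its values were seen. Chr5:13205101-13205400, 940 bp from the pseudogene AT5G34890, had a depth of 23.0 and 29.1 in NRPD1ΔCTD, 63.0 and 65.2 in nrpd1-3, and 24.4 and 22.8 in full-length NRPD1. Its level was 21.9 and 20.2% in NRPD1ΔCTD, 2.65 and 1.92% in nrpd1-3, and 25.9 and 26.8% in full-length NRPD1. Both nrpd1-3 libraries stood apart from the 4 others in depth and in level, and nrpd1-3 minus full-length NRPD1 was -24.1 points (adjusted p = 1.97e-109 by logistic regression).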
